A study of Homo sapiens with 27 samples.

Results

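The transcripts of 10 genes of bone morphogenetic protein (BMP) signalling were followed in U2OS cells as the cultures grew past confluence, with and without depletion of the protease MMP-2. The genes were taken by symbol from the 55882 gene symbols counted in each library, and all 10 were found. They comprise the ligands BMP2, BMP4 and BMP6, the secreted antagonists GREM1 and NOG, the inhibitory SMAD gene SMAD6, and the inhibitor of DNA binding genes ID1, ID2, ID3 and ID4.

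BMP ligands bind pairs of type I and type II receptor kinases, which phosphorylate SMAD1, SMAD5 and SMAD9, and these enter the nucleus with SMAD4 and act on target genes. Gremlin and noggin, the products of GREM1 and NOG, bind BMP ligands outside the cell and keep them from the receptors, while SMAD6 blocks the receptor SMADs inside it and is itself a target of the pathway. The ID genes are widely used as readouts of BMP signalling, and their proteins bind E proteins such as TCF3, TCF4 and TCF12 and hold them off DNA. In bone, BMP signalling is best known for driving osteoblast differentiation.

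U2OS is a human osteosarcoma line. The control line is labelled WT. It is called pLKO.1 control here because the study describes its RNA-seq controls as cells with the pLKO.1 control vector. The labels themselves name no vector, and the study also uses wild type for cells in other experiments. The lines labelled MMP2KD_23 and MMP2KD_26, called MMP2sh1 and MMP2sh2, carry pLKO.1 with 1 of 2 short hairpin RNAs against MMP2. Per the study, all 3 lines were stably transduced with lentivirus, selected with puromycin and grown in medium with serum. If the WT libraries are these pLKO.1 cells, the controls share the vector and the selection. RNA was taken on day −2 (labelled Proliferating), at confluence on day 0, and on day +2 (labelled OverConfluent). The study's methods give the same plating density, below confluence, for all these cultures. They name the day of plating day −2, and the cells then grew to confluence on day 0 and past it by day +2. There were 9 groups of 3 libraries, described in the study as independent biological replicates. Each hairpin is represented by 1 line, so an effect of a hairpin and a property of the line cannot be told apart, and none of the sources used here says that a line is a clone.

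The libraries held 33580129 to 59374327 counts on genes, with a median of 40075178. MMP2 was lower than in the control in both depleted lines on every day, with log2 fold changes of −2.53, −2.47 and −2.34 in MMP2sh1 and −0.70, −1.06 and −0.82 in MMP2sh2 on days −2, 0 and +2. Of 8 mesenchymal markers, COL1A2 stayed at or below 0.683 CPM (counts scaled to library size), with 6 libraries at 0, and ALPL at or below 6.98 CPM. The mesenchymal markers summed to 3534 to 4623 CPM, with 4489 to 4623 CPM in MMP2sh1, 3699 to 3875 CPM in MMP2sh2 and 3613 to 3816 CPM in the control on day +2. Epithelial markers summed to 7.17 to 18.8 CPM over 5 genes, endothelial markers to 1.63 to 5.18 CPM over the 3 of 4 genes found, and blood markers to 0.155 to 1.68 CPM over 5 genes, with CD3E and HBB at 0 in 26 libraries each. On day +2 the mitochondrial share of counts was 5.49% to 6.37% in the control, 6.53% to 7.15% in MMP2sh1 and 6.10% to 6.41% in MMP2sh2, and the part of these values in the results was not tested. In bulk RNA, fewer cells expressing a gene and less RNA per cell cannot be told apart.

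The following stretches are shown because they lie before the start sites of ID1, SMAD6 and ID3, which were among the members that differed most between the lines, and because SMAD recognition letters occur in them. For ID1, 120 bases of the plus strand of GRCh37, chr20:30192092-30192211, ending 881 bases before the start of the canonical transcript, carry in capitals GGCGCC and the spaced motif, GGCGNC followed after 5 further bases by GTCTG, letters known from BMP response elements. The other stretches are RefSeq promoters in GRCh38.p14, which run from 250 bases before to 50 bases after a start. The SMAD6 promoter lies at chr15:66701986-66702285 on the plus strand, with the palindromic SMAD element GTCTAGAC in capitals, and the ID3 promoter at chr1:23559452-23559751 on the minus strand, with the SMAD box GTCTG, seen as its reverse complement on the printed strand, in capitals.
ID1 upstream: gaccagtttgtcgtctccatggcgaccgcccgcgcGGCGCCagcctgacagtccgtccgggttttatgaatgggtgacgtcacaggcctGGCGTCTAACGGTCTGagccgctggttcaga
SMAD6 promoter: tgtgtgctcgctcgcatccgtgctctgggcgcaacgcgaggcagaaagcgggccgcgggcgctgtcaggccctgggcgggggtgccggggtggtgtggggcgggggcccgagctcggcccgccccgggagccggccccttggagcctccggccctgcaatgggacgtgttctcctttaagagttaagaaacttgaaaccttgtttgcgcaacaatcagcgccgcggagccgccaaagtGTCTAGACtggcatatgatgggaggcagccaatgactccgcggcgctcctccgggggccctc
ID3 promoter: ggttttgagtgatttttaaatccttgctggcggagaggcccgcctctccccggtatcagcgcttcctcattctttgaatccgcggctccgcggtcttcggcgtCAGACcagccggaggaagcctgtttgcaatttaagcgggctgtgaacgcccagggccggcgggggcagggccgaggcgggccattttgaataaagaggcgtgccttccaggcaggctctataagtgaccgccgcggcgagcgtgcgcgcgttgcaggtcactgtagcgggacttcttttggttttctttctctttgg

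The 4 motifs were searched on both strands, and the spaced motif contains GTCTG. They were chosen with the expression results known, and a match is a description of the sequence only. Of 35116 RefSeq promoters, 0.202% held GTCTAGAC, 0.12% held the spaced motif, 19.2% held GGCGCC and 45.3% held GTCTG. RefSeq promoters were found for 8 of the 10 members, all but BMP2 and NOG, and the GTCTAGAC of SMAD6 lay 12 bases before its start. The RefSeq promoters of ID1, ID2 and BMP6 held none of the 4 motifs, and those of ID3, ID4, BMP4 and GREM1 held GTCTG. That of ID4, which differed more between the lines on day +2 than SMAD6, is not printed. In windows from 2000 bases before to 50 after the start of 19893 genes in GRCh37, GTCTAGAC was in 1.21%, the spaced motif in 0.392%, GGCGCC in 48.7% and GTCTG in 97%. Among the windows of the 10 members, the spaced motif was in that of ID1, 911 bases before its start, and GTCTAGAC was in those of SMAD6 and, 1940 bases before the start, NOG. GGCGCC occurred in the windows of ID1, ID2, ID4, SMAD6, NOG, BMP2 and GREM1 and not in those of ID3, BMP4 and BMP6. BMP4 has other starts in RefSeq, and its promoter at chr14:53955001-53955300 in GRCh38.p14 held 2 GGCGCC matches. The RefSeq promoter of GREM1 at chr15:32717754-32718053 also held 2 GGCGCC matches.

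The 4 ID genes and SMAD6 rose from day −2 to day 0 in all 3 lines. From day 0 to day +2 ID1, ID3, ID4 and SMAD6 fell in both MMP2-depleted lines, with log2 changes from −1.58 to −2.39. ID2 fell less, to 78.4% of its day 0 mean in MMP2sh1 and 57.5% in MMP2sh2, and stood at 98.6% in the control. The MMP2sh1 call of ID2 was lost with 1 library left out. In the control ID1, ID4 and SMAD6 were also called lower over this step, with log2 changes of −0.38, −0.43 and −0.58. The ID1 call was not made by DESeq2, and that of ID4 was lost without control replicate 1 of day 0 (adjusted p = 0.09, edgeR) or of day +2 (0.05). ID3 averaged 167 CPM in the control on day 0 and 169 CPM on day +2. By day +2 ID3 stood at 17.3% of the control mean in MMP2sh1 and at 26.9% in MMP2sh2, while NOG stood at 182% and 171%. BMP4 fell from day −2 to day +2 in every line and was not called between either depleted line and the control on day +2.

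**Figure D1:**
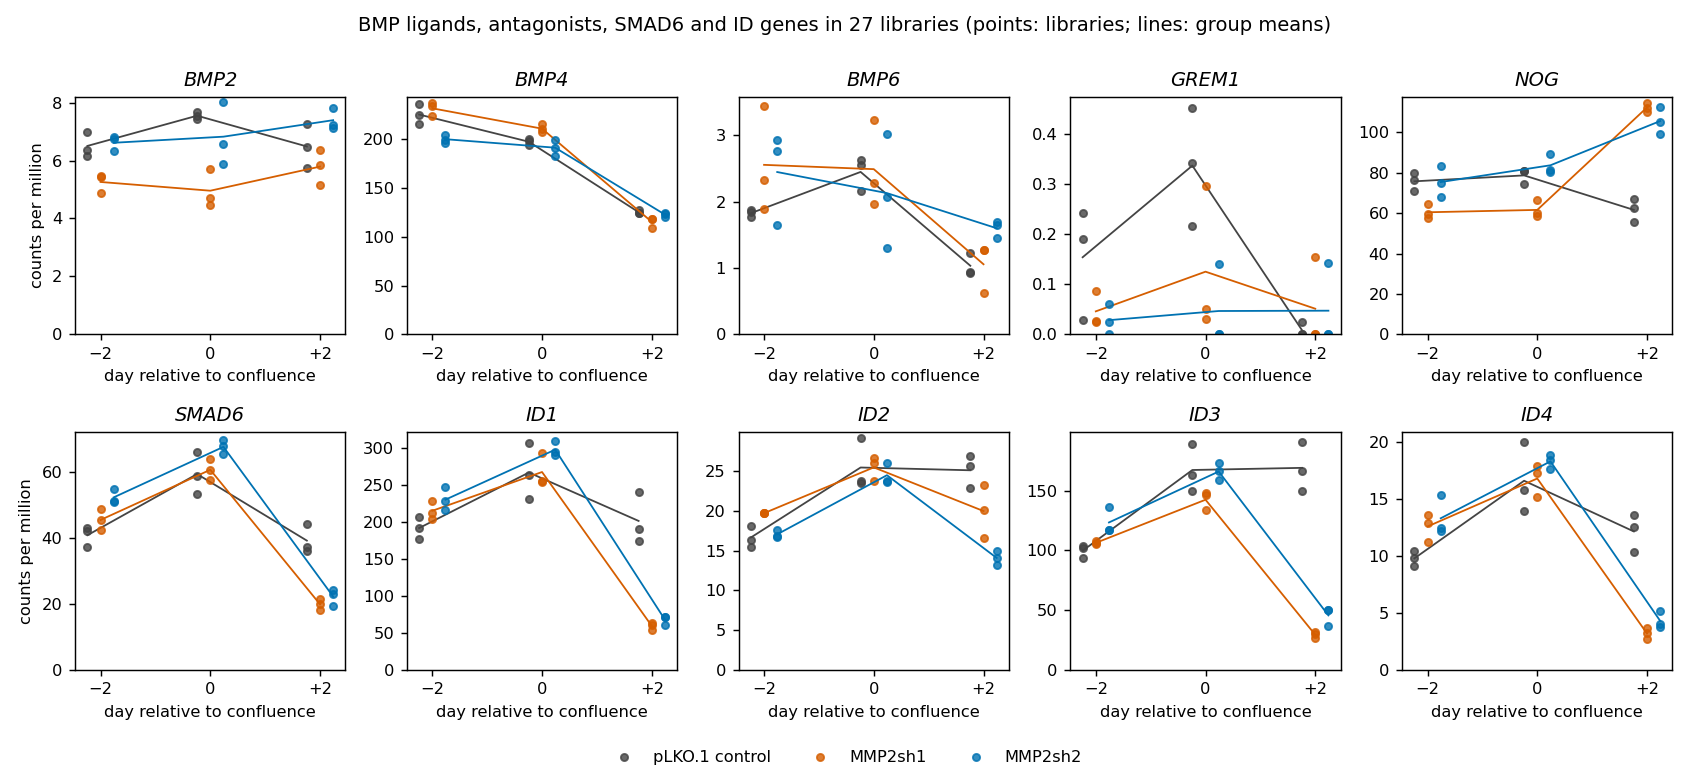
Expression of the 10 genes in CPM (vertical axis of each panel, from 0) by day relative to confluence (horizontal axis) in the pLKO.1 control, MMP2sh1 and MMP2sh2, with a point for each of 27 libraries and lines through the group means. On day +2 all 6 libraries of the depleted lines lie below the 3 control libraries for ID1, ID3, ID4 and SMAD6 and above them for NOG.

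Differences were called at an adjusted p under 0.05 with edgeR, fitted on all genes that passed the filter on low counts. Differences are on the log2 scale with their standard error, and a negative value means lower. GREM1 passed this filter in 4 of 24 comparisons and the other 9 members in all of them, so counts of members are given over those tested. In the control, 6 of 10 members were called between day −2 and day 0 against 35.5% of all genes tested, 5 of them higher on day 0, with a median log2 change of 0.52 over the members and 0.02 over all genes. Between day 0 and day +2 the control had 6 of 9 members called, all lower, where 41.4% of all genes were called and 20.1% were lower. From day −2 to day +2 it had 6 of 9, with 3 up and 3 down, against 56.8%. Over the same span 7 of 9 members were called in MMP2sh1 (54.9% of all genes) and 7 of 9 in MMP2sh2 (54.7%), in each line with 1 up and 6 down. Step by step, 6 of 9 were called from day −2 to day 0 in MMP2sh1 (32.7%) and 5 of 9 in MMP2sh2 (30.3%), and 8 of 9 from day 0 to day +2 in MMP2sh1 (46.0%) and 7 of 9 in MMP2sh2 (45.5%).

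The comparisons of each depleted line with the control share the 3 control libraries of that day and are therefore set side by side. On day +2, 6 of 9 members were called in MMP2sh1 (14.8% of all genes) and 6 of 9 in MMP2sh2 (6.32%), in each case NOG higher and SMAD6, ID1, ID2, ID3 and ID4 lower. The median log2 fold change of the members was −0.33 in MMP2sh1 and −0.82 in MMP2sh2, and that of all genes was close to 0 in both. On day −2 the counts were 2 of 9 in MMP2sh1 (11.6%) and 5 of 9 in MMP2sh2 (11.0%), and on day 0 they were 3 of 10 in MMP2sh1 (16.8%) and 0 of 9 in MMP2sh2 (12.9%). For this last comparison edgeR gave 2 members with an unadjusted p under 0.05, DESeq2 called 0, and edgeR called 2 with no filter on low counts and 1 when at least 10 counts were required in every library.

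**Figure D2:**
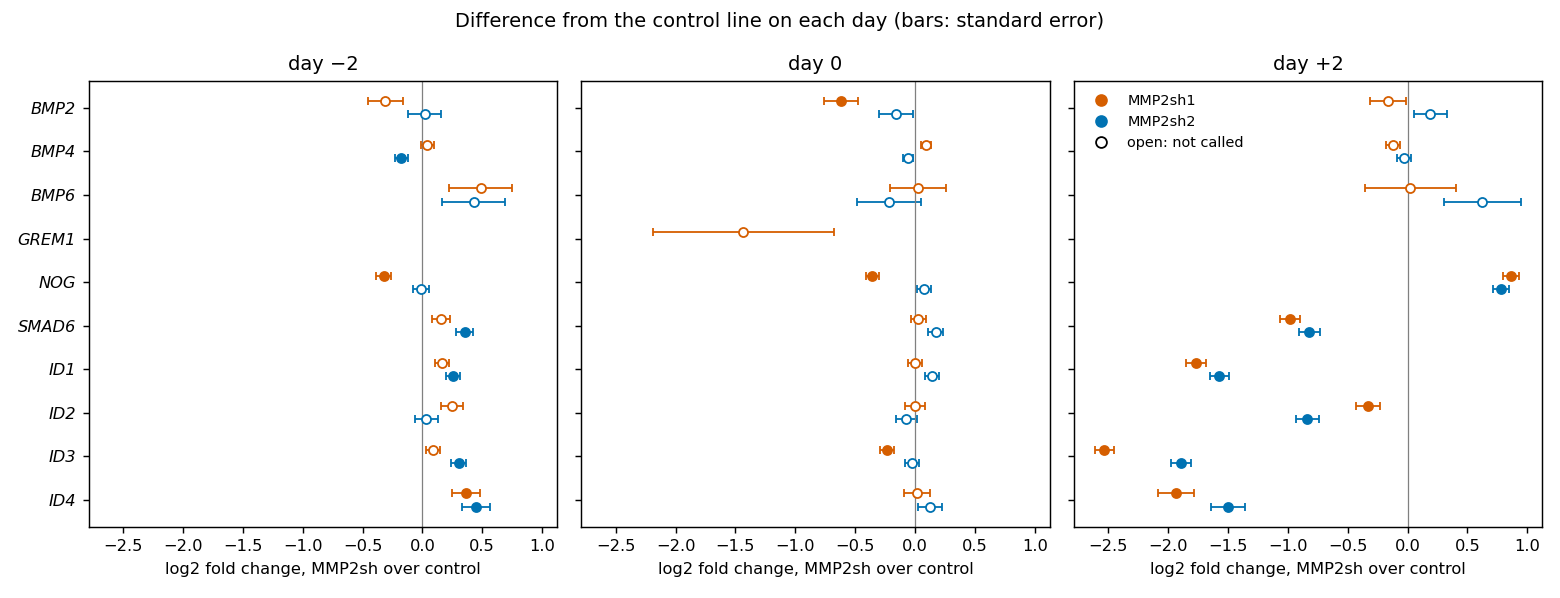
Difference of MMP2sh1 and MMP2sh2 from the pLKO.1 control on days −2, 0 and +2, as log2 fold change (horizontal axis) for each gene (vertical axis), with bars for the standard error and filled points for called differences. On day +2 ID3 reaches −2.53 in MMP2sh1 and −1.89 in MMP2sh2, whereas on day 0 no member is called in MMP2sh2, and genes that did not pass the filter have no point.

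Among the ligands, BMP4 (chr14:54416454-54425479 in GRCh37, as are all gene positions given here), a ligand with wide roles in mesoderm and bone, was measured at 224, 215 and 236 CPM in the control on day −2. It was at 200.4, 194 and 198 CPM on day 0 and at 128, 124 and 124 CPM on day +2. The 3 days did not overlap, and the log2 change from day −2 to day +2 was −0.84 ± 0.05 (standard error, adjusted p = 3.6e-14, edgeR). BMP4 fell over the same span by 1.01 on the log2 scale in MMP2sh1 and by 0.70 in MMP2sh2. On day +2 MMP2sh1 held 118, 119 and 109 CPM, all below the control, and MMP2sh2 held 125, 123 and 120.4 CPM, overlapping it. The line differences of −0.12 ± 0.06 (adjusted p = 0.16, edgeR) and −0.03 ± 0.06 (adjusted p = 0.85) did not pass the test. On day −2 BMP4 was lower in MMP2sh2 than in the control by a log2 fold change of −0.18 ± 0.05 (adjusted p = 0.032, edgeR), a call lost on leaving out control replicate 1, control replicate 3, MMP2sh2 replicate 1 or MMP2sh2 replicate 2, with adjusted p up to 0.16. Exons of BMP4 share 506 bases with a gene without a symbol on the opposite strand, whose identifier is not among the counted genes, so unstranded reads from there cannot be told apart.

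BMP2, an osteogenic ligand (chr20:6748333-6760893), was low, with group means from 4.96 CPM in MMP2sh1 on day 0 to 7.55 CPM in the control on day 0. On day 0 the control libraries were at 7.69, 7.52 and 7.43 CPM and those of MMP2sh1 at 4.71, 4.46 and 5.703 CPM. These groups did not overlap, and BMP2 was lower in MMP2sh1 by a log2 fold change of −0.62 ± 0.14 (adjusted p = 0.002, edgeR). It was not called in any comparison of MMP2sh2 with the control or of days within a line. On day 0 BMP2 was also lower in MMP2sh1 than in MMP2sh2 (−0.45 ± 0.15, adjusted p = 0.033, edgeR). That call was lost in 4 of 6 fits with a library left out.

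BMP6, a ligand known for its part in iron balance (chr6:7726332-7881961), was near the low end of what was measured, at 63 to 102 counts per library in the control on day −2. It went from 2.17, 2.62 and 2.56 CPM on day 0 to 0.937, 0.932 and 1.23 CPM on day +2 in the control, which did not overlap, a log2 change of −1.22 ± 0.29 (adjusted p = 8.8e-04, edgeR). The change from day 0 to day +2 was −1.23 ± 0.31 in MMP2sh1 (adjusted p = 0.0023, edgeR) and −0.38 ± 0.30 in MMP2sh2 (adjusted p = 0.31). The MMP2sh2 value was −0.05 without day 0 replicate 2 and −0.65 without day 0 replicate 3, not called in either. The lower BMP6 level of the control on day +2 than on day −2 (−0.81 ± 0.31, adjusted p = 0.028, edgeR) was lost as a call without replicate 1 or 2 of either day (adjusted p up to 0.077). BMP6 was not called between lines on any day. Its exons share 212 bases with TXNDC5 on the opposite strand, and TXNDC5 is among the counted genes. Counting in union mode without strand gives a read over exons of both genes to neither. If the annotation used for counting held this overlap, reads from that stretch were therefore left out of BMP6.

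Of the antagonists, NOG (chr17:54671060-54672972) took opposite directions in the control and the depleted lines. The control held 70.8, 76.4 and 80.1 CPM on day −2, 80.8, 74.6 and 80.6 CPM on day 0 and 66.9, 62.3 and 55.6 CPM on day +2. MMP2sh1 held 59.4, 57.5 and 64.4 CPM, then 58.5, 66.4 and 60.0 CPM, and then 115, 112 and 110.2 CPM on these days. MMP2sh2 held 74.8, 67.9 and 83.4 CPM, then 80.5, 81.4 and 89.1 CPM, and then 105, 112 and 99.2 CPM. On day +2 every library of both depleted lines was therefore above every control library, whereas on days −2 and 0 every MMP2sh1 library was below them and MMP2sh2 overlapped the control.

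NOG fell in the control from day 0 to day +2, by a log2 change of −0.33 ± 0.06 (adjusted p = 5.8e-05, edgeR), and rose over that step by 0.88 ± 0.06 in MMP2sh1 (adjusted p = 1.3e-11) and by 0.36 ± 0.06 in MMP2sh2 (adjusted p = 1.1e-05). Against the control on day +2, NOG was higher by 0.86 ± 0.07 in MMP2sh1 (adjusted p = 5.0e-11, edgeR) and by 0.78 ± 0.07 in MMP2sh2 (adjusted p = 8.8e-12). In MMP2sh1 it was lower than in the control on day −2 (−0.32 ± 0.07, adjusted p = 0.0015, edgeR) and on day 0 (−0.36 ± 0.06, adjusted p = 1.5e-05), so that the sign of the line difference turned between days 0 and +2. In MMP2sh2 the differences on those days were −0.01 ± 0.07 (adjusted p = 0.95, edgeR) and 0.07 ± 0.05 (adjusted p = 0.44).

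GREM1 (chr15:33010205-33037307) was close to the limit of detection. The control had 14, 8 and 1 counts on day −2, 10, 21 and 14 on day 0, and 0, 1 and 0 on day +2. On day 0 MMP2sh1 had 3, 12 and 1 counts and MMP2sh2 had 0, 5 and 0, and each group of the depleted lines on days −2 and +2 summed to 4 to 6 counts. A count of 0 allows up to 3 counts, or 0.0496 to 0.0891 CPM, counting error only. GREM1 was tested only where control libraries of day 0 took part and was called in 0 of those 4 comparisons by edgeR. On day 0 MMP2sh1 differed from the control by −1.43 ± 0.76 on the log2 scale (adjusted p = 0.22, edgeR), and by −2.94 without MMP2sh1 replicate 2, where it was not called either. GREM1 shares 367 exon bases with the antisense gene GREM1-AS1, which is not among the counted genes, so unstranded reads from that stretch may come from either.

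SMAD6 (chr15:66994574-67075187), whose promoter with GTCTAGAC is printed above, was measured at 37.1, 43.01 and 42.1 CPM in the control on day −2, at 58.5, 53.2 and 65.97 CPM on day 0 and at 36.05, 37.3 and 43.99 CPM on day +2. On day +2 MMP2sh1 held 18.2, 21.3 and 19.9 CPM and MMP2sh2 held 24.03, 23.1 and 19.4 CPM, all below the lowest control library. SMAD6 was lower than in the control by log2 fold changes of −0.98 ± 0.09 (adjusted p = 1.2e-09, edgeR) and −0.82 ± 0.09 (adjusted p = 3.2e-09), leaving 50.7% and 56.7% of the control mean. The change from day 0 to day +2 was −0.58 ± 0.08 in the control, −1.60 ± 0.07 in MMP2sh1 and −1.58 ± 0.08 in MMP2sh2. On day −2 the difference from the control had the other sign in MMP2sh2, where all 3 libraries, at 51.1, 50.8 and 54.6 CPM, were above the control (0.36 ± 0.07, adjusted p = 0.0021, edgeR).

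ID3 (chr1:23884417-23885992) showed the largest line difference of the members tested on day +2. The control held 102, 104 and 93.7 CPM on day −2, 189, 149.9 and 163 CPM on day 0 and 149.7, 167 and 191 CPM on day +2. On day +2 MMP2sh1 held 29.97, 31.7 and 26.2 CPM and MMP2sh2 held 50.3, 49.7 and 36.7 CPM. The 3 groups of day +2 did not overlap one another. ID3 was lower than in the control by −2.53 ± 0.08 in MMP2sh1 (adjusted p = 6.4e-20, edgeR) and by −1.89 ± 0.08 in MMP2sh2 (adjusted p = 2.4e-21), and it was lower in MMP2sh1 than in MMP2sh2 by −0.64 ± 0.10 (adjusted p = 1.2e-04).

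Before day +2 the ID3 differences were smaller. On day −2 the MMP2sh2 libraries, at 117, 117 and 136 CPM, were all above the control (0.30 ± 0.06, adjusted p = 0.0029, edgeR), and those of MMP2sh1, at 105, 106 and 108 CPM, differed by 0.09 ± 0.06 (adjusted p = 0.36). On day 0 MMP2sh1 was at 146, 134 and 148 CPM and was called lower, by −0.24 ± 0.06 (adjusted p = 0.0027, edgeR), and this call was lost with DESeq2 (adjusted p = 0.12), in a single fit of all 27 libraries (0.062), without control replicate 1 (0.097) and without MMP2sh1 replicate 2 (0.061).

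ID1 (chr20:30193086-30194318), downstream of the GGCGCC and spaced motif printed above, held 191, 206 and 177 CPM in the control on day −2, 306, 230.5 and 263 CPM on day 0 and 173, 189.9 and 239.6 CPM on day +2. On day −2 MMP2sh2 held 216, 227 and 246 CPM, all above the control, a log2 fold change of 0.26 ± 0.06 (adjusted p = 0.0058, edgeR). On day 0 the depleted lines overlapped the control, at 253, 255 and 293 CPM in MMP2sh1 and 293, 289.9 and 308 CPM in MMP2sh2. On day +2 they held 61.0, 62.6 and 53.97 CPM and 71.2, 71.7 and 60.1 CPM, below every control library of any day. The log2 fold changes against the control on day +2 were −1.77 ± 0.08 (adjusted p = 1.0e-15, edgeR) and −1.57 ± 0.08 (adjusted p = 1.6e-19). The control itself fell from day 0 to day +2 by 0.38 on the log2 scale (standard error 0.08, adjusted p = 2.5e-04, edgeR), a call that DESeq2 did not make (adjusted p = 0.094). Over this step the log2 change of ID1 was −2.16 in MMP2sh1 and −2.11 in MMP2sh2.

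ID4 (chr6:19837601-19842428), an ID gene best known from the nervous system and breast, was measured at a lower level. The control held 9.11, 10.4 and 9.83 CPM on day −2, 20.01, 13.97 and 15.8 CPM on day 0 and 10.3, 12.5 and 13.6 CPM on day +2, when MMP2sh1 held 2.67, 3.68 and 3.21 CPM and MMP2sh2 held 5.13, 3.77 and 3.99 CPM. No library of the depleted lines reached the lowest control library on day +2. The line differences were −1.93 ± 0.15 (adjusted p = 1.2e-10, edgeR) and −1.50 ± 0.14 (adjusted p = 2.3e-10). On day −2 ID4 was higher than in the control by 0.37 ± 0.12 in MMP2sh1 (adjusted p = 0.039, edgeR), a call lost in the single fit of 27 libraries (0.055) and without any 1 library but MMP2sh1 replicate 1 (adjusted p up to 0.19). It was higher by 0.45 ± 0.12 in MMP2sh2 (adjusted p = 0.014, edgeR), a call lost without control replicate 1 (0.09) or MMP2sh2 replicate 2 (0.11). In the control, the rise of ID4 from day −2 to day +2 (0.32 ± 0.12, adjusted p = 0.021, edgeR) was lost as a call with DESeq2 (0.058) and without day −2 replicate 1, day +2 replicate 2 or day +2 replicate 3 (up to 0.14), and the fall from day 0 to day +2 (−0.43 ± 0.12) without day 0 replicate 1 (0.09) or day +2 replicate 1 (0.05).

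ID2 (chr2:8818975-8824591), an ID gene with roles in lymphoid development, differed from the other ID genes in the order of the depleted lines. On day +2 the control held 22.8, 26.9 and 25.6 CPM, MMP2sh1 held 20.1, 16.6 and 23.2 CPM and MMP2sh2 held 13.2, 14.9 and 14.1 CPM. MMP2sh1 overlapped the control, and MMP2sh2 lay below both other lines. ID2 was lower than in the control by −0.84 ± 0.09 in MMP2sh2 (adjusted p = 1.4e-08, edgeR) and by −0.33 ± 0.10 in MMP2sh1 (adjusted p = 0.022), where the call was lost without control replicate 2 (0.13), control replicate 3 (0.077) or MMP2sh1 replicate 2 (0.2). It was higher in MMP2sh1 than in MMP2sh2 on day +2 by 0.50 ± 0.11 (adjusted p = 0.0043, edgeR), a call lost without MMP2sh1 replicate 3 (0.055). Of the members, ID2 and ID3 were called between the depleted lines on day +2, in opposite directions (2 of 9, against 7.86% of all genes). Between the depleted lines 3 of 9 members were called on day −2 (10.7%) and 5 of 9 on day 0 (18.5%), NOG and ID3 lower and BMP4 higher in MMP2sh1 on both days. On day 0 BMP2 and ID1 were also called lower in MMP2sh1. The count on day −2 was 0 without MMP2sh1 replicate 2 and 1 without MMP2sh1 replicate 3 or MMP2sh2 replicate 2. That on day 0 was 2 without MMP2sh1 replicate 2 and 3 without MMP2sh1 replicate 1 or MMP2sh2 replicate 3. ID2 shares 145 exon bases with the antisense gene ID2-AS1, which is not among the counted genes either.

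Whether the change with stage differed between lines was tested as an interaction of line and day over 12 libraries. From day −2 to day +2, 6 of 9 members were called in MMP2sh1 (7.40% of all genes) and 6 of 9 in MMP2sh2 (4.98%), again NOG upward and SMAD6 and the ID genes downward. The ID3 change was lower than that of the control by −2.62 ± 0.11 in MMP2sh1 (adjusted p = 7.8e-17, edgeR) and by −2.20 ± 0.12 in MMP2sh2 (adjusted p = 8.2e-15), with the smallest p of 20548 and of 20653 genes tested. The difference for ID1 was −1.93 ± 0.12 and −1.83 ± 0.11, with the third smallest p in both. The interaction was −2.30 and −1.95 for ID4, −1.14 and −1.18 for SMAD6, −0.58 and −0.87 for ID2, and 1.19 and 0.78 for NOG. For ID2 in MMP2sh1 the call (adjusted p = 0.011, edgeR) was lost without MMP2sh1 day +2 replicate 2 (0.052). BMP2, BMP4 and BMP6 were not called, with the lowest adjusted p, that of BMP4, at 0.22 in MMP2sh1 and 0.3 in MMP2sh2.

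**Figure D3:**
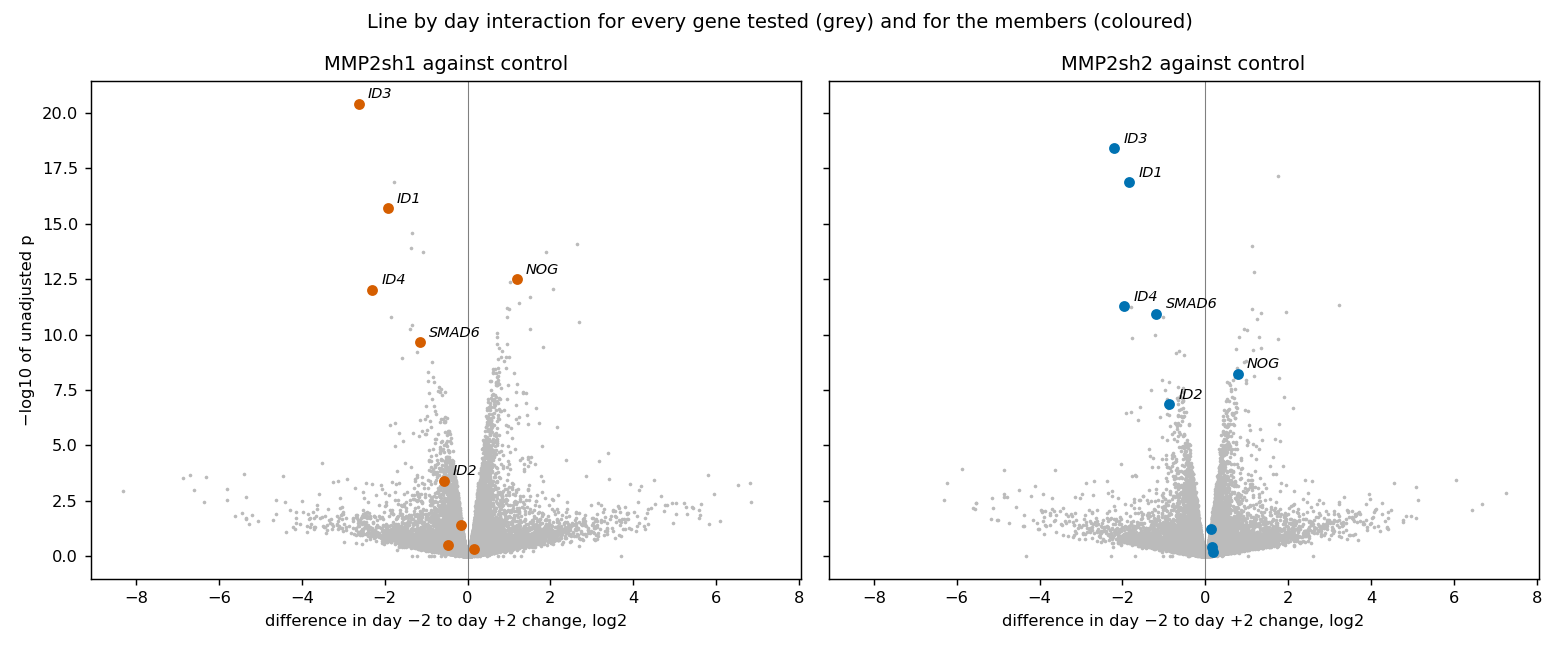
Interaction of line and day for every gene tested (grey) and for the members (coloured), as the difference from the control in the log2 change between day −2 and day +2 (horizontal axis) against −log10 of the unadjusted p (vertical axis), for MMP2sh1 on the left and MMP2sh2 on the right. ID3 has the smallest p in both panels, and NOG lies on the positive side.

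The steps before and after confluence were then compared, in comparisons added after the data had been seen. From day −2 to day 0 the interaction was called for 0 of 10 members in MMP2sh1 (1.35% of all genes) and for 1 of 9 in MMP2sh2 (3.69%), ID3 at −0.31 ± 0.09 (adjusted p = 0.042, edgeR). This call was lost in the single fit (0.16), with the replicate block (0.053) and without control day −2 replicate 1 or 3, control day 0 replicate 1, MMP2sh2 day −2 replicate 3 or MMP2sh2 day 0 replicate 1 or 2 (up to 0.17). In MMP2sh1 the ID3 value was −0.33 ± 0.09 (adjusted p = 0.059, edgeR), 2 members had an unadjusted p under 0.05, and DESeq2 called 1. From day 0 to day +2 the interaction was called for 5 of 10 members in MMP2sh1 (4.66%) and 6 of 9 in MMP2sh2 (4.76%). ID3 stood at −2.30 ± 0.11 and −1.87 ± 0.11 over this second step and ID1 at −1.77 ± 0.12 and −1.72 ± 0.11. ID2 was at −0.33 ± 0.14 (adjusted p = 0.21, edgeR) and −0.77 ± 0.13 (adjusted p = 9.4e-05).

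**Figure D4:**
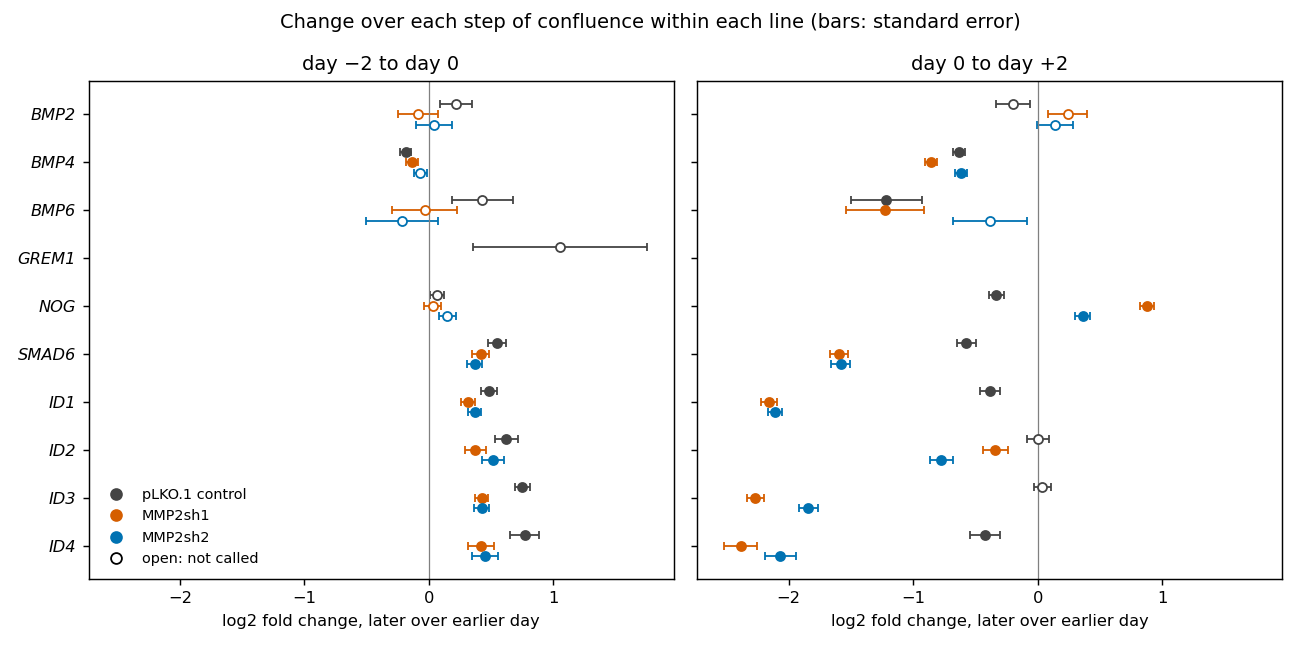
Log2 change of each member from day −2 to day 0 (left) and from day 0 to day +2 (right) in the pLKO.1 control, MMP2sh1 and MMP2sh2, with bars for the standard error and filled points for called changes. On the left the ID genes and SMAD6 are positive in all 3 lines, and on the right ID3 is at 0.04 in the control, −2.27 in MMP2sh1 and −1.84 in MMP2sh2.

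Levels can be set against each other only per length, here as CPM per kilobase of the canonical transcript. In the control on day −2 the order of mean levels was ID1 (195), BMP4 (117), ID3 (105), NOG (39.6), ID2 (12.8), SMAD6 (10.6), ID4 (2.53), BMP2 (1.83), BMP6 (0.483) and GREM1 (0.0105), and the libraries of neighbours in this order did not overlap. With the length of all exons of a gene together, the BMP4 libraries ran from 69.5 to 76.2 and the ID3 libraries from 62.6 to 69.4. In MMP2sh1 on day +2, ID1 (60.2), BMP4 (59.7) and NOG (58.7) overlapped on the canonical length, ID3 was at 30.9, and ID4 (0.823) was below BMP2 (1.63). On the length of all exons ID1, BMP4 and NOG did not overlap, at 48.01, 37.2 and 58.7.

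Likeness of pattern was measured as Pearson's r of log2 CPM over the 27 libraries, which fall into 9 groups, among 22107 genes. For ID1 the 3 most alike genes were ID4 (0.98), SMAD6 (0.97) and ID3 (0.96), and for ID4 they were ID1 (0.98), SMAD6 (0.97) and ID3 (0.96). ID3 was most like ID1 (0.96), ID4 (0.96) and SMAD6 (0.91), and SMAD6 was most like ID1 (0.97), ID4 (0.97) and PPAP2B (0.96). For ID2 the 3 genes were RP11-65J3.1 (0.80), BPIFB4 (0.80) and KCNJ8 (0.78), and its r with ID1 was 0.55. NOG was most like AARS (0.84), ZFP36L1 (0.83) and PPP2R3A (0.81), and its r with ID3 was −0.74. BMP4 was most like SDC2 (0.98), GPD1L (0.98) and TUBB2B (0.98), and BMP2 like PHF8 (0.84), GABPB2 (0.80) and TMEM248 (0.79). BMP6 was most like CDH24 (0.83), RP11-418J17.1 (0.82) and SPIRE2 (0.82), and GREM1, at its low counts, like SEC22C (0.68), HEATR5A (0.67) and MFSD4 (0.66).

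The other genes of the pathway were taken from a list of 57, of which 43 were tested on day +2 in each depleted line. In MMP2sh1, 5 were higher and 7 lower than in the control, and in MMP2sh2, 2 were higher and 8 lower. These were 12 of 43 and 10 of 43 genes of the list, against 14.8% and 6.32% of all genes tested, with median log2 fold changes of −0.14 and −0.07. Among receptors, BMPR1B, a type I receptor, was higher in both, by 0.90 ± 0.11 (adjusted p = 3.4e-07, edgeR) and 0.54 ± 0.10 (adjusted p = 2.7e-04), as was the co-receptor RGMB by 0.49 ± 0.08 and 0.53 ± 0.08. BMPR1B averaged 12.5 CPM in the control, 23.2 CPM in MMP2sh1 and 18.1 CPM in MMP2sh2 on that day. BMPR2, the main type II receptor for BMPs, was called higher in MMP2sh1 (0.46 ± 0.06) and was at 0.12 ± 0.06 in MMP2sh2 (adjusted p = 0.28, edgeR). ENG, the gene of the co-receptor endoglin, was called lower in MMP2sh2 (−0.33 ± 0.10, adjusted p just under 0.05, edgeR). RGMA, another co-receptor gene, was called lower in MMP2sh1 (−0.46 ± 0.08).

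The secreted antagonist SOSTDC1 was lower in both depleted lines on day +2, by −1.21 ± 0.10 (adjusted p = 4.0e-10, edgeR) and −0.92 ± 0.09 (adjusted p = 2.0e-09). In the control SOSTDC1 averaged 0.434 CPM on day −2, 4.805 CPM on day 0 and 23.8 CPM on day +2. FST, which encodes the activin and BMP binding protein follistatin, was lower by −0.51 ± 0.07 and −0.26 ± 0.07, and NBL1, another antagonist, was higher in MMP2sh1 by 0.32 ± 0.10. Inside the cell, the inhibitory SMAD gene SMAD7 was lower by −0.31 ± 0.09 and −0.33 ± 0.09, and SMAD9 lower in MMP2sh1 by −0.65 ± 0.12, while the ubiquitin ligase gene SMURF2 was higher in MMP2sh1 by 0.32 ± 0.06. Of the 9 other target genes, 6 were tested on day +2. There edgeR called 0 in either line, against 14.8% and 6.32% of all genes, with 2 in MMP2sh1 and 0 in MMP2sh2 at an unadjusted p under 0.05. With so few genes tested, 0 called does not set these targets apart from all genes. The target ATOH8 had too few counts on day +2 for a fold to be given, as told below. TCF12, an E protein gene, was lower in MMP2sh2 by −0.24 ± 0.06.

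**Figure D5:**
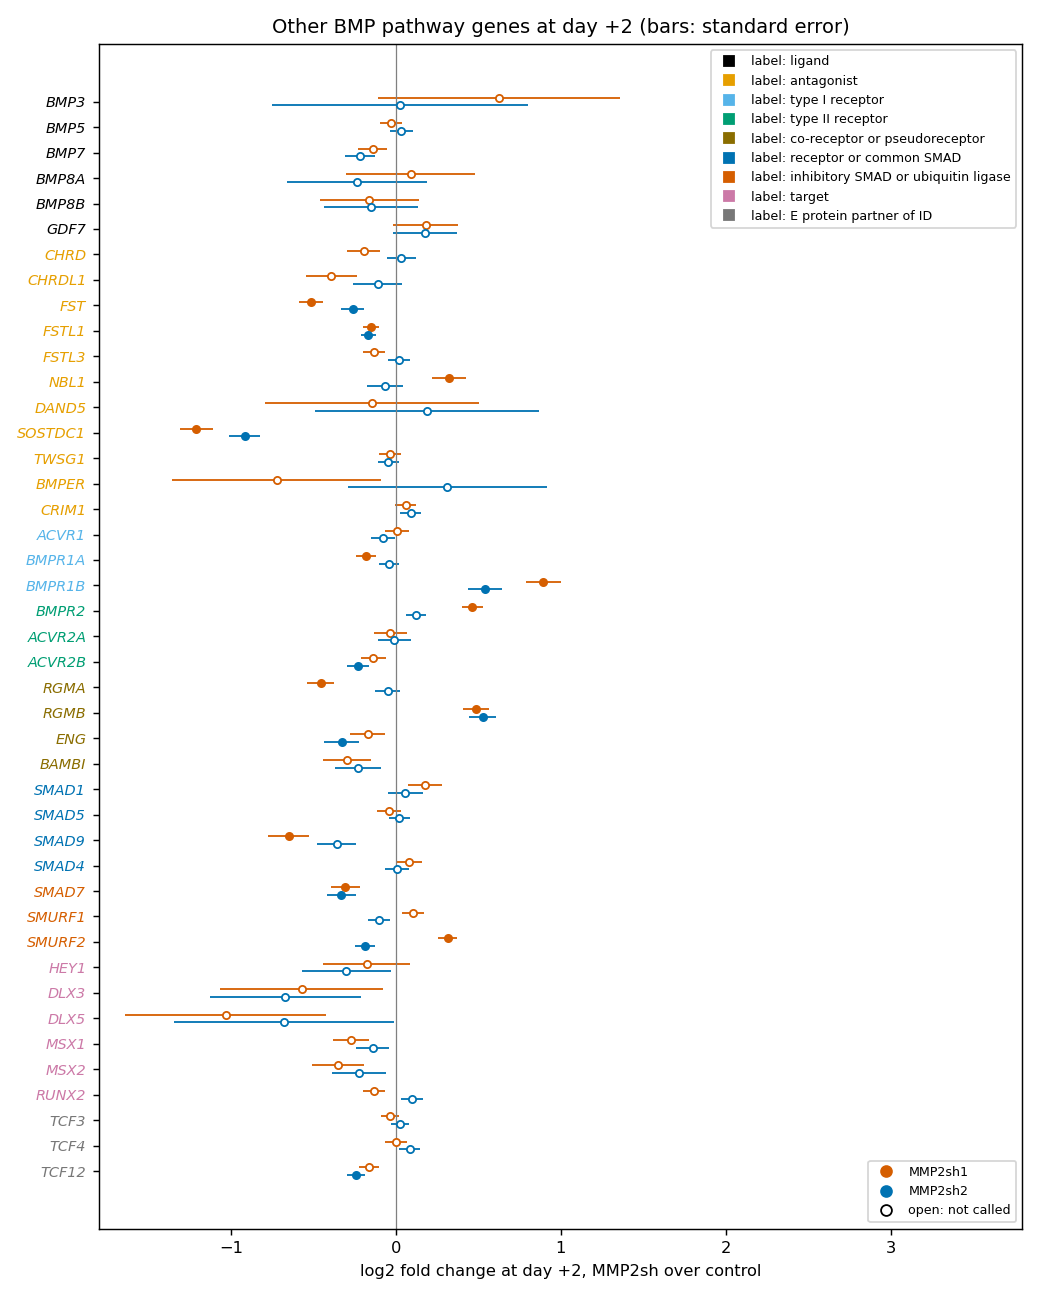
Log2 fold change on day +2 of MMP2sh1 and MMP2sh2 against the pLKO.1 control (horizontal axis) for the other BMP pathway genes tested (vertical axis), with bars for the standard error and filled points for called differences. BMPR1B and RGMB lie to the right in both lines and SOSTDC1 to the left, at −1.21 and −0.92.

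The interaction of line and day between day −2 and day +2 was called for 6 of 46 genes of this list in MMP2sh1 (7.40% of all genes) and for 8 of 46 in MMP2sh2 (4.98%). BMPR1B (1.16 ± 0.16 and 0.84 ± 0.15) and TCF4 (0.57 ± 0.11 and 0.44 ± 0.09), an E protein partner of the ID proteins, were called upward in both, and ENG downward in both (−0.89 ± 0.15 and −0.81 ± 0.14). RGMB (0.54), BMPR2 (0.46) and the receptor SMAD gene SMAD5 (0.33, adjusted p = 0.048, edgeR) were called upward in MMP2sh1. In MMP2sh2 the ligand BMP5 (0.42) was called upward, and FST (−0.51), SMAD7 (−0.37, adjusted p = 0.046, edgeR), SMURF2 (−0.31) and the target gene ATOH8 downward. ATOH8 had 1 count in all 3 libraries of day +2 together in each depleted line and 26 in the control, so no fold is given.

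On day −2 ENG was higher than in the control in both depleted lines (0.73 ± 0.09 and 0.47 ± 0.09) and TCF4 lower (−0.57 ± 0.08 and −0.36 ± 0.07), among 8 of 44 genes of the list called in MMP2sh1 (11.6% of all genes) and 8 of 43 in MMP2sh2 (11.0%). On day 0 SOSTDC1 was lower in both (−1.46 ± 0.21 and −1.59 ± 0.22), as was RGMA (−0.71 ± 0.08 and −0.42 ± 0.08), among 15 of 45 and 12 of 45 genes called (16.8% and 12.9% of all genes). FST had opposite signs in the depleted lines on day −2, at −0.32 ± 0.07 in MMP2sh1 and 0.24 ± 0.07 in MMP2sh2, both called.

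Within the control from day −2 to day +2, 28 of 45 genes of the list were called, 15 up and 13 down, a share near the 56.8% of all genes called. The largest rises of the list were in the antagonist genes SOSTDC1 (5.87 ± 0.18 on the log2 scale) and CHRD (1.27 ± 0.10), the gene of chordin, and in RGMA (0.69), RUNX2 (0.66), a master gene of osteoblasts, and the type II receptor gene ACVR2B (0.54). The largest falls were in the antagonist gene BMPER (−3.78 ± 0.28), ATOH8 (−2.56 ± 0.57), FSTL3 (−1.72 ± 0.05), CRIM1 (−1.47 ± 0.06) and RGMB (−0.85 ± 0.07). The ATOH8 value rests on the few control counts of day +2 given above.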

How the data were processed

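Poly(A) RNA from 27 U2OS cultures was sequenced. Per the study's methods and the submitters' processing notes, the authors used Trim Galore 0.6.0 for trimming, STAR 2.7.3a for alignment to hg19 (GRCh37) and HTSeq 2.0.0 for counting exons in union mode without strand, and they deposited raw counts per gene symbol. The annotation they used is not given in the sources used here. Lines naming no gene (16.8% to 19.1% of the total) were left out.

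Counts were tested with edgeR 4.0.16 (quasi-likelihood test, TMM scaling, filterByExpr with a minimum count of 10) in R 4.3.3 on the libraries of each comparison, with Benjamini-Hochberg adjustment over all genes tested, and the scripts were tested on simulated data. CPM values are TMM-scaled, and log2 CPM has a prior count of 2. DESeq2 1.42.0, median-of-ratios scaling, other filters, a replicate block, 1 fit of all 27 libraries and leaving out each library were alternatives. Their results are given for the members only, not for the other pathway genes. Of 24 comparisons, 8 were added after seeing the data. Counts of replicate pairs differed beyond sampling noise, with a chi-square statistic of 4.74 to 24.6 times its degrees of freedom.

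The 10 members and the other lists were chosen with earlier results of these data known. A gene of the pathway list is not reported here, for a reason unrelated to its values, and was taken out of the list and its counts after the results were known. Named genes are all members, per comparison up to 5 called pathway genes of largest change in each direction, and the 3 genes most alike to each member. These pathway genes are given in full for the control from day −2 to day +2, for line differences on day +2 and for the interactions from day −2 to day +2, with examples elsewhere. Gene positions and lengths are from GENCODE v44 lifted to GRCh37, and promoters from RefSeq on GRCh38.p14.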

Additional observations from a re-analysis of the deposited data

Results flagged for a closer look

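Called interactions, in which the change between days in a depleted line differed from that in the control by edgeR's quasi-likelihood test, are collected here as differences of log2 changes. Between day −2 and day +2 the values in MMP2sh1 were 1.19 for NOG, −1.14 for SMAD6, −1.93 for ID1, −0.58 for ID2, −2.62 for ID3 and −2.30 for ID4. In MMP2sh2 they were 0.78 for NOG, −1.18 for SMAD6, −1.83 for ID1, −0.87 for ID2, −2.20 for ID3 and −1.95 for ID4.

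Between day 0 and day +2 they were 1.22 for NOG, −1.01 for SMAD6, −1.77 for ID1, −2.30 for ID3 and −1.95 for ID4 in MMP2sh1. In MMP2sh2 they were 0.70 for NOG, −1.0 for SMAD6, −1.72 for ID1, −0.77 for ID2, −1.87 for ID3 and −1.63 for ID4. Between day −2 and day 0 the interaction of ID3 in MMP2sh2 was −0.31. All these comparisons share control libraries, and each line stands for 1 hairpin.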

How the results depend on the processing

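Over fits other than leaving out a library, 1287 of 1312 values of single members stayed on their side of the threshold, 12 lost a call, 13 gained one, and 0 called values reversed. With a library left out, 1588 of 1656 stayed on their side, 58 lost a call, 10 gained one, and 0 called values reversed. Among the values that stayed on their side, those called in neither fit changed sign 14 and 60 times. Counts of members called stayed within 1.5 times the reported ones except as follows. In MMP2sh1 against the control on day −2, 2 members became 1 in a single fit of 27 libraries. In MMP2sh2 against the control on day 0, 0 became 2 with no filter and 1 with at least 10 counts in every library. Between the depleted lines on day 0, 5 became 3 in the single fit. For the interaction from day −2 to day 0, 0 in MMP2sh1 became 1 with DESeq2, with no filter, with at least 10 counts and with the replicate block, and 1 in MMP2sh2 became 0 with the block and in the single fit. The cause was not tested.

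With a library left out, members called ranged from 1 to 2 in MMP2sh1 and from 3 to 5 in MMP2sh2 against the control on day −2, and from 0 to 1 in MMP2sh2 on day 0. They ranged from 0 to 2, 2 to 6 and 1 to 3 between the depleted lines on days −2, 0 and +2, from 0 to 1 and 0 to 1 for the interaction from day −2 to day 0, in MMP2sh1 and MMP2sh2, and from 5 to 6 in MMP2sh1 for that from day −2 to day +2, with 6 throughout in MMP2sh2.

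The groups share replicate numbers. Correlations of the deviations of same-numbered libraries from their group means ran from −0.0248 to 0.0364 over 18 comparisons of 2 groups, with 0 comparisons in which every pair exceeded 0.1, so the numbers were not taken to pair the libraries. With the replicate block 6 members in MMP2sh1 and 6 in MMP2sh2 were called against the control on day +2, the same numbers as without it. The share of all genes called with the block was not worked out, so these counts have no background beside them.

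Depth limits GREM1, ATOH8 and BMP6, whose counts were low. With 3 libraries per group, a p above the threshold does not show equal levels.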
